A study of Mus musculus with 6 samples.

Results

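Alpha-fetoprotein (Afp), the RNA-binding proteins Igf2bp1, Igf2bp2, Igf2bp3 and Lin28b, and the chromatin proteins Hmga1 and Hmga2 are oncofetal genes, active in the fetal liver, low in the adult liver and active again in many liver tumours. These 7 genes were taken by symbol from a count table of 53599 gene symbols. The rule used symbols and no measured value, although earlier results of these data were known when the set was made. Members with few or no counts are given library by library. Hepatocyte RNA was sequenced at 4 days post injection (dpi) of AAV8, an adeno-associated virus that reaches hepatocytes of the living mouse. The 3 Sox4 libraries came from mice given AAV8-TBG-HA-Sox4-P2A-Cre, labelled with the genotype Sox4, and the 3 empty vector (EV) libraries from mice given AAV8-TBG-Cre, labelled WT. Both groups therefore received Cre recombinase, and in both the vector was driven by TBG, a promoter active in hepatocytes. Per the study's methods the animals were male Rosa-LSL-Cas9-EGFP mice on a C57BL/6J background, in which Cre switches on Cas9 and EGFP, and mice used for exogenous Sox4 expression were 4 to 8 weeks old. Cells were released with liberase and enriched on Percoll without sorting for infected cells.

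Afp is the main serum protein of the fetus and belongs to the albumin family, whose genes Alb, Afp and Afm lie side by side. LIN28B blocks the maturation of let-7, a microRNA family that represses Igf2bp, Lin28b and Hmga2 mRNAs, and IGF2BP proteins in turn bind and stabilise mRNAs of growth genes. HMGA proteins bend AT-rich DNA and are abundant in embryonic and dividing cells.

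Of the 7 genes, 4 had enough counts to be tested, and 3 of these rose in Sox4-expressing hepatocytes, Igf2bp3, Igf2bp2 and Afp, where 29.0% of all tested genes were higher. Each rose by between 2.16-fold and 2.78-fold from a very low level. The calls were lost in some fits that left out 1 library, which also leaves fewer samples. Without Sox4 replicate 3, EV replicate 1 or EV replicate 3, the number of the 4 that passed was 0, 0 and 1, while 50.1%, 47.7% and 49.5% of all tested genes passed in the same fits. With limma-voom 0 of the 4 passed, against 54.9% of all tested genes. Hmga1, the most abundant of the 7 per length, had the same mean in both groups. Lin28b and Igf2bp1 had no count in any library, and Hmga2 had 2 counts in all.

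The delivered gene, Sox4, was checked against the labels first, and its 21697, 15097 and 11816 counts in the Sox4 libraries stood against at most 3 in an EV library. Counts cannot tell vector transcripts from the endogenous gene. Total counts were 15090629 to 16964860 per library. Levels are CPM, counts scaled to a library of 1e06, on library sizes adjusted by the trimmed mean of M-values (TMM), which made the Sox4 library sizes 1.48 times those of EV, against 1.07 times by total counts. Library size alone moved the median log2 change over all tested genes from 0.04 to 0.51, so every change below is relative to the TMM scale. The comparison called 6990 of 12691 tested genes at a Benjamini-Hochberg adjusted p under 0.05 (edgeR quasi-likelihood test), or 55.1%, made up of 29.0% higher and 26.0% lower in Sox4. The labels give the libraries as separate samples and the study describes its RNA-Seq replicates as animals, so p-values measure the spread between these mice.

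The let-7 family is shown first, because its seed match occurs in 6 of the 7 genes. All 8 mouse let-7 5p microRNAs in RefSeq (GRCm38.p6) share bases 2 to 8, the seed GAGGUAG, given in capitals in let-7a.
let-7a-5p: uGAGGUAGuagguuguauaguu
The letters that pair with this seed, CTACCTC, were searched on the sense strand in the longest annotated 3′ UTR of each gene (GENCODE M21, GRCm38). They occur in 9.02% of 21020 genes. Lin28b, Hmga2 and Igf2bp1 hold 4 matches each, while 0.152% of genes hold 3 or more. Igf2bp2, Igf2bp3 and Hmga1 hold 1 each, and the 201 bases of the Afp 3′ UTR hold no match. The first match of each gene follows with 11 bases on either side, read on the transcribed strand, with the seed match in capitals.
Igf2bp1, chr11:95961768-95961796: tgcgaagtaaaCTACCTCaaggtgtgaag
Igf2bp2, chr16:22059463-22059491: acaaataaaagCTACCTCaggtgtttttt
Igf2bp3, chr6:49086777-49086805: tttttactcaaCTACCTCaggtattcagt
Lin28b, chr10:45381012-45381040: gggcgggaagtCTACCTCatgcaagcaca
Hmga1, chr17:27563281-27563309: ctgttcacaaaCTACCTCtggacggttgt
Hmga2, chr10:120364214-120364242: acattcaatttCTACCTCagcatcagttg
In all of these first matches but that of Hmga1 an A follows. Of the 4 matches in each gene, an A follows 3 in Igf2bp1, 1 in Lin28b and 1 in Hmga2. A match is a description of the letters, and let-7 itself was not measured by these libraries.

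**Figure D1:**
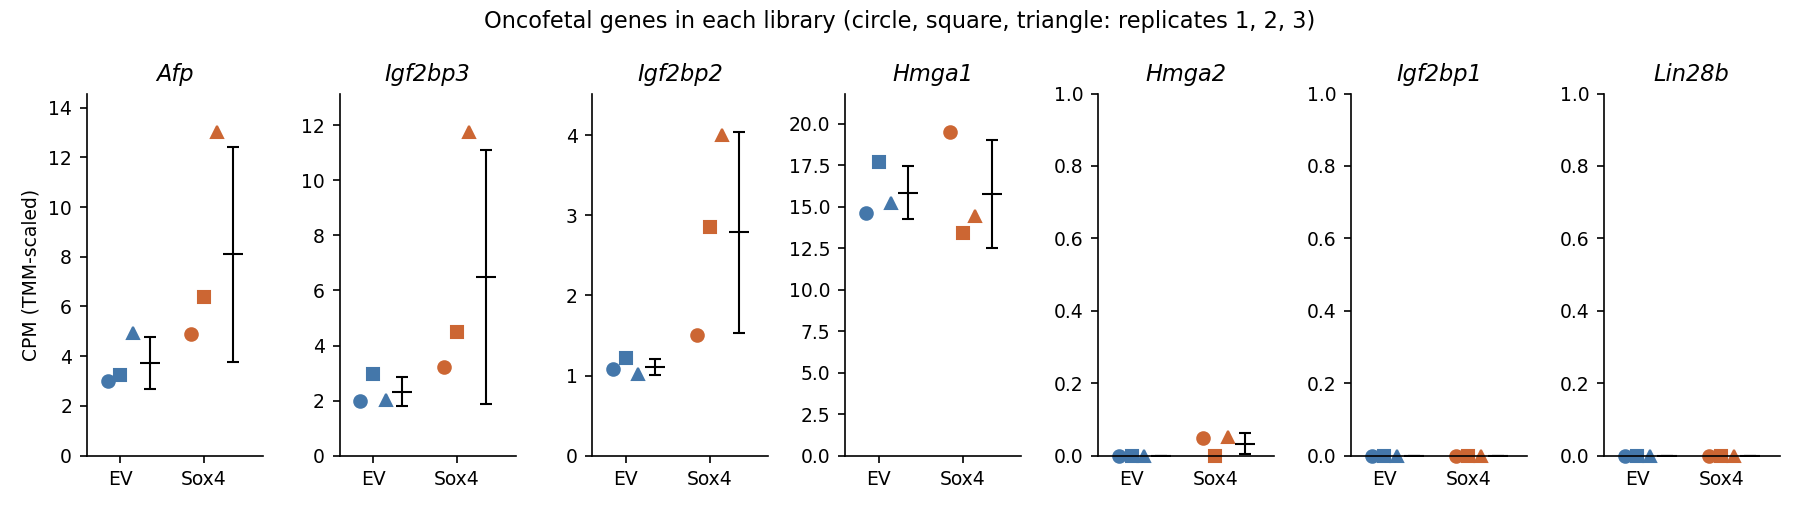
Level of each of the 7 genes in CPM (vertical axis, linear, a separate scale for each gene) in the 3 EV and 3 Sox4 libraries, with circles, squares and triangles for replicates 1, 2 and 3 and the mean ± SD in black. Sox4 replicate 3 is the highest point for Afp, Igf2bp3 and Igf2bp2, whereas for Hmga1 the groups overlap, and Igf2bp1 and Lin28b lie at 0 throughout.

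Afp (ENSMUSG00000054932, chr5:90490737-90508907, plus strand, GRCm38), the secreted fetal counterpart of albumin, gave 39, 43 and 68 counts in the EV libraries and 98, 125 and 257 in the Sox4 libraries. In CPM these were 3.0, 3.26 and 4.93 in EV and 4.91, 6.38 and 13.0 in Sox4. EV replicate 3 and Sox4 replicate 1 lay at nearly the same level, so the ranges touched, and Sox4 replicate 3 stood far above the rest. Mean Afp rose from 3.73 ± 1.05 to 8.10 ± 4.32 CPM (SD, n = 3), a log2 fold change of 1.11 (SE 0.38, edgeR adjusted p = 0.0325), and the 95% interval of the fold was 1.19 to 3.92. The increase did not pass without Sox4 replicate 3 (0.60, edgeR adjusted p = 0.127), EV replicate 1 (0.97) or EV replicate 2 (1.01), nor with limma-voom (1.01, adjusted p = 0.0787).

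Albumin mRNA was vastly more abundant throughout. Afp counts divided by Alb counts, times 1e06, gave 35.5, 30.1 and 47.2 in the EV libraries and 79.3, 98.8 and 178 in the Sox4 libraries. On this ratio, which does not depend on library scaling, every Sox4 library lay above every EV library. On the TMM scale the divisor, Alb, was itself lower in every Sox4 library than in every EV library. The share of all genes that separate in this way over Alb was not computed. Per kilobase of the longest annotated transcript, Alb stood at 48701 CPM in EV and 32663 CPM in Sox4, against 1.81 and 3.92 CPM for Afp. The other albumin family genes were lower or not past the threshold. Alb fell by 0.58 on the log2 scale (adjusted p = 0.0245) and Gc, the vitamin D binding protein, fell by 0.75 (adjusted p = 0.00216), although with library size alone neither passed (Alb -0.11, Gc -0.28). Leaving out 1 library in turn gave Alb -0.69 to -0.52, with no call when EV replicate 2, EV replicate 3 or Sox4 replicate 2 was the one left out. Afm, which encodes afamin, was at -0.27 (adjusted p = 0.184), and at 0.20 with library size alone.

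The promoters of Alb and Afp, neighbours on the same strand of chromosome 5 with opposite calls, are printed from RefSeq (GRCm38.p6), from 250 bases before to 50 after the annotated start. The SOX letters ACAAAG or ACAATG were searched on both strands and are in capitals.
Afp, chr5:90490464-90490763: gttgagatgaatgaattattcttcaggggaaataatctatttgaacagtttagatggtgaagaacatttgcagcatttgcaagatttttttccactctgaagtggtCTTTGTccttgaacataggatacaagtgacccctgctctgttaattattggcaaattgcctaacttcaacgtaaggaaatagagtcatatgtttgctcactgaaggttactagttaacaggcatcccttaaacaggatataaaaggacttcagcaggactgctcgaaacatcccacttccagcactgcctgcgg
Alb, chr5:90460620-90460919: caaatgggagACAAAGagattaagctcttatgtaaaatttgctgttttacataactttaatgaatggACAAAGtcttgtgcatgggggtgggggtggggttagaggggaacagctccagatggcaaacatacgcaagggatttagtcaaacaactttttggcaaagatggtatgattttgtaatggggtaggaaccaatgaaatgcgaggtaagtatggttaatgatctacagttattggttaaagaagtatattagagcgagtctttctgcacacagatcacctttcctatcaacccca
The Afp promoter holds 1 SOX match, read on the minus strand. The Alb promoter holds 2 SOX matches and that of Gc 1. These letters occur in 28.6% of 32851 promoters of this length. The promoters of Afm, Igf2bp2, Igf2bp3, Lin28b and Hmga1 hold no match, and that of Hmga2 holds 1 SOX match. No match says only that these letters are not in this window. The Afp promoter is 40% G and C, against 76.7% for Igf2bp2, 60.3% for Igf2bp3 and a median of 52.7% over all promoters.

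Of 20 tested genes of a list of the albumin family and Afp regulators, 6 were higher and 7 lower, against 29.0% higher and 26.0% lower of all tested genes, with a median log2 fold change of 0.01 against 0.04 over all tested genes. Zbtb20, the main repressor of Afp in the adult liver, rose from 117 ± 23.8 to 188 ± 27.2 CPM (SD, n = 3), a log2 fold change of 0.68 (adjusted p = 0.00711). Zhx2, the repressor whose loss gives hereditary persistence of Afp in mice, was at 18.7 ± 1.79 CPM in EV and 19.5 ± 5.01 CPM in Sox4 (0.06, adjusted p = 0.789), and Zfhx3, another repressor, was at 0.35 (adjusted p = 0.125). Both had an adjusted p under 0.05 as higher with library size alone, Zhx2 at 0.53 and Zfhx3 at 0.82, where the median of all genes was 0.51.

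Among activators of the Afp promoter and enhancers, Foxa1, a pioneer factor of the liver, rose by 1.32 (adjusted p = 3.25e-05). Cebpa fell by 1.34 (adjusted p = 9.01e-04) and Cebpb by 1.40 (adjusted p = 7.33e-04) on the log2 scale. Trp53, a repressor of Afp, rose by 1.69 (adjusted p = 2.10e-05). Of the named repressors of Afp, Zbtb20 and Trp53 thus rose in the same libraries as Afp.

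Igf2bp3 (ENSMUSG00000029814, chr6:49085223-49214957, minus strand, GRCm38), the member of its family best known from tumours, had 26, 39 and 28 counts in EV and 64, 88 and 232 in Sox4. The levels were 2.0, 2.96 and 2.03 CPM in EV and 3.20, 4.49 and 11.7 CPM in Sox4. The groups did not overlap, but the gap between EV replicate 2 and Sox4 replicate 1 was small, and Sox4 replicate 3 was again far above the others. Mean Igf2bp3 rose from 2.33 ± 0.544 to 6.48 ± 4.6 CPM (SD, n = 3), a log2 fold change of 1.47 (SE 0.49, edgeR adjusted p = 0.0294), with a 95% interval of the fold from 1.29 to 5.96. It did not pass without Sox4 replicate 3 (0.73, edgeR adjusted p = 0.0963), EV replicate 1 (1.4) or EV replicate 3 (1.37), nor with limma-voom (1.25, adjusted p = 0.106).

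In the annotation 18.1% of the 50-base stretches of Igf2bp3 are shared with Malsu1, a mitochondrial ribosome factor encoded on the opposite strand. Whether counting used strand is not given in the sources used here, so reads from this stretch cannot be assigned with certainty. Malsu1 itself fell from 19.1 ± 0.400 to 12.6 ± 1.42 CPM (SD, n = 3), opposite in direction to Igf2bp3 (-0.60, adjusted p = 0.00475).

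Igf2bp2 (ENSMUSG00000033581, chr16:22059009-22163299, minus strand, GRCm38), the family member most often found in adult tissues, had 14, 16 and 14 counts in EV and 30, 56 and 79 in Sox4. The levels were 1.08, 1.21 and 1.02 CPM in EV and 1.5, 2.86 and 4.0 CPM in Sox4. The groups did not overlap, the EV libraries were tightly grouped, and Sox4 replicate 1 was the lowest of its group. Mean Igf2bp2 rose from 1.10 ± 0.101 to 2.79 ± 1.25 CPM (SD, n = 3), a log2 fold change of 1.33 (SE 0.42, edgeR adjusted p = 0.0211), with a 95% interval of the fold from 1.31 to 4.83. It did not pass without Sox4 replicate 3 (0.98, edgeR adjusted p = 0.0880), Sox4 replicate 2 (1.32), EV replicate 1 (1.30) or EV replicate 3 (1.26), nor with limma-voom (1.20, adjusted p = 0.0578). No other annotated gene shares an identical 50-base stretch with Igf2bp2 or with Afp.

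Igf2bp1 (ENSMUSG00000013415, chr11:95957163-96005940, minus strand, GRCm38), the most strictly fetal of the family, had no count in any of the 6 libraries. A count of 0 allows up to 3 counts, which is 0.218 to 0.231 CPM in an EV library and 0.150 to 0.153 CPM in a Sox4 library, by counting error only. The summed level of the family was therefore that of Igf2bp2 and Igf2bp3, at 3.08, 4.17 and 3.05 CPM in EV and 4.71, 7.35 and 15.7 CPM in Sox4. Igf2bp3 counts exceeded Igf2bp2 counts in every library, by between 1.57 and 2.94 times.

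Of 7 RNAs known to be bound by IGF2BP proteins, 6 were tested, with 4 higher, 1 lower and a median log2 fold change of 1.58. Over all tested genes 29.0% were higher and 26.0% lower, with a median of 0.04. H19 is also counted in the hepatoblast list below, and Myc in the list of let-7 targets. H19, the imprinted fetal RNA, had 0, 3 and 1 counts in EV and 6125, 6918 and 18798 in Sox4, at least 2383-fold higher against a floor of 3 counts per EV library (adjusted p = 6.59e-05). H19 passed the filter only through the Sox4 libraries, so a call of higher was the only one open to it. As for the Igf2bp genes, the highest of its libraries was Sox4 replicate 3. Igf2, the fetal growth factor that gave the family its name, was below the filter, with no count in EV and 0, 2 and 10 counts in Sox4 1 to 3. Myc rose from 5.35 ± 2.37 to 43.2 ± 2.92 CPM (3.02, adjusted p = 2.03e-05) and Actb rose by 1.17 (adjusted p = 7.88e-05). Cd44 had 0, 6 and 10 counts in EV and 19, 35 and 41 in Sox4 (1.99, adjusted p = 0.0375). The call of Cd44 was lost in 4 of 6 fits that left out a library (EV 1, EV 2, Sox4 2 or Sox4 3), where its value lay between 1.41 and 2.76 over all 6, and the list then had 3 calls.

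**Figure D2:**
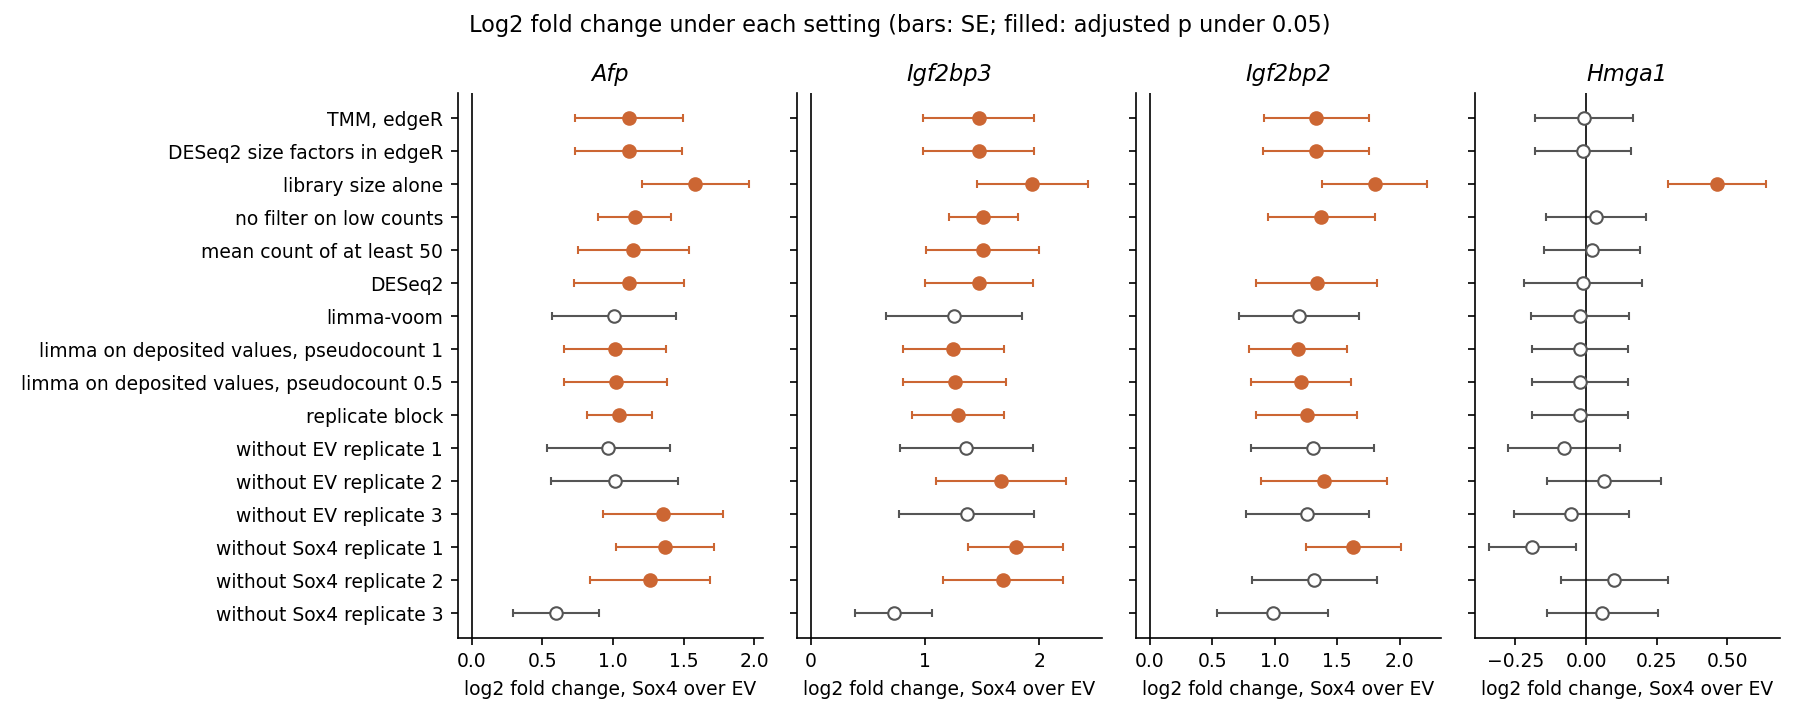
Log2 fold change of Sox4 over EV (horizontal axis, bars are the SE) for the 4 tested oncofetal genes under each scaling, filter, test and left-out library (rows), with filled points for an adjusted p under 0.05. Afp, Igf2bp3 and Igf2bp2 stay above 0 in every row shown but are all open with limma-voom and without EV replicate 1 or Sox4 replicate 3, and Hmga1 is filled only with library size alone, at 0.46.

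Lin28b (ENSMUSG00000063804, chr10:45376620-45486395, minus strand, GRCm38) had no count in any library, and the same was true of its homologue Lin28a. The limit that a count of 0 allows is the one given for Igf2bp1. The enzymes on which let-7 depends were all detected. Of 11 tested genes of let-7 processing, 6 were higher, 0 were lower and the median log2 fold change was 0.60 against 0.04 over all tested genes, and with library size alone 10 were called. Of all tested genes 29.0% were higher, and 63.8% were called with library size alone. The number of calls was 6 to 7 when a library was left out.

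Tut4, the uridylyltransferase that tails let-7 precursors held by LIN28A, rose from 32.1 ± 9.62 to 64.4 ± 5.39 CPM (SD, n = 3), a log2 fold change of 1.0 (adjusted p = 0.00225). Dgcr8 (0.99, adjusted p = 5.24e-04) and Drosha (0.74, adjusted p = 7.66e-04), which together cut primary microRNA transcripts in the nucleus, rose as well. Xpo5, which exports the precursors, rose by 0.60, and the Argonaute genes Ago1 and Ago2, whose proteins hold the mature microRNA, rose by 0.73 and 0.60. Dicer1, which makes the last cut, was at 59.2 ± 5.63 CPM in EV and 56.5 ± 2.49 CPM in Sox4 (-0.07, adjusted p = 0.629, and 0.40 with library size alone). Dis3l2, which degrades tailed precursors, was at 0.03 (adjusted p = 0.879), and Tut7, a relative of Tut4, at -0.36 (adjusted p = 0.0527, and 0.11 with library size alone). Tut7 had an adjusted p under 0.05 as lower without EV replicate 1 or Sox4 replicate 1 and with DESeq2, and its value was -0.48 to -0.27 when a library was left out.

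Other mRNAs known as let-7 targets were compared from a list without the oncofetal genes. Of 17 tested, 11 were higher and 1 lower, against 29.0% and 26.0% of all tested genes, and the median log2 fold change was 0.78 against 0.04. The increases included the cell cycle genes Ccnd1 (3.22, adjusted p = 0.00241), Cdc25a (2.82, adjusted p = 6.51e-06) and Ccnd2 (1.6, adjusted p = 0.0253), and the GTPase gene Nras (1.55, adjusted p = 3.75e-05). Arid3a was at 1.63 (adjusted p = 0.0393), with at most 40 counts in a library. Ccnd2, with at most 6 counts in an EV library, passed the filter only through the Sox4 libraries, so it could only be called higher. When 1 library was left out, Ccnd2 (1.4 to 1.89) kept its call in the fit without Sox4 replicate 1, and Arid3a (1.25 to 2.55) in those without Sox4 replicate 1 or EV replicate 1. Insr, the insulin receptor, fell by 0.52 (adjusted p = 0.00374), and was at -0.05 with library size alone. Trim71, a target first known from worms, had no count in EV and 4, 4 and 3 counts in Sox4, near the limit of detection.

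Hmga1 (ENSMUSG00000046711, chr17:27556497-27563674, plus strand, GRCm38), the member of its family that persists at a low level in adult cells, had 190, 233 and 210 counts in EV and 389, 263 and 285 in Sox4. The levels were 14.6, 17.7 and 15.2 CPM in EV and 19.5, 13.4 and 14.4 CPM in Sox4. The groups overlapped, with the Sox4 libraries holding both the highest and the lowest level. The means were 15.8 ± 1.61 and 15.8 ± 3.24 CPM (SD, n = 3), a log2 fold change of -0.01 (SE 0.17, edgeR adjusted p = 0.980). The 95% interval of the fold ran from 0.761 to 1.30, so a change within these bounds cannot be told from no change. With library size alone, where 63.8% of all tested genes were called, Hmga1 was higher (0.46, adjusted p = 0.0388), less than the shift of 0.51 of all genes on that scale.

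Hmga1 is also the member with the least certain counts. Of its 50-base stretches 55.0% are shared with Hmga1b, a near-identical copy, which had 0, 5 and 2 counts in EV and 0, 1 and 2 in Sox4. How reads that map to both were counted is not given in the sources used here. Its exons also overlap AI413582 and Gm49774 on the opposite strand, and AI413582 had at most 24 counts in a library.

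Hmga2 (ENSMUSG00000056758, chr10:120361275-120476469, minus strand, GRCm38), the strictly embryonic member, had no count in EV and 1, 0 and 1 counts in Sox4. At this depth no difference was detectable (exact two-sided permutation test, p = 0.4, where the smallest p that 3 against 3 libraries allow is 0.1). With no filter on low counts the fitted log2 fold change was 2.46 (edgeR adjusted p = 0.455).

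Other high mobility group genes were compared as a list. All 6 that were tested passed the threshold, 5 higher and 1 lower, where 55.1% of all tested genes passed, with a median log2 fold change of 1.02 against 0.04. Hmgb3 rose from 10.6 ± 0.721 to 49.0 ± 12.1 CPM (2.21, adjusted p = 1.12e-05) and Hmgn1, a nucleosome-binding protein, from 48.3 ± 2.49 to 154 ± 22.9 CPM (1.67, adjusted p = 7.66e-06). Hmgb2 (1.19), Hmgn2 (0.85) and Hmgb1 (0.29, adjusted p = 0.0404) rose by less, and Hmgn5 fell by 0.59. Hmgb1 lost the call without a filter and in every fit that left out a library but that without Sox4 replicate 2 (0.23 to 0.34 over the 6), and Hmgn5 with library size alone (-0.12).

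Levels of different genes were compared per kilobase of the longest annotated transcript. In each of the 6 libraries the order was Hmga1, Afp, Igf2bp3, Igf2bp2, and then the members at or near 0. In EV the values per kilobase were 7.31 to 8.83 CPM for Hmga1, 1.45 to 2.39 for Afp, 0.460 to 0.681 for Igf2bp3 and 0.205 to 0.245 for Igf2bp2, with no overlap between neighbours. In Sox4 they were 6.70 to 9.73, 2.38 to 6.30, 0.737 to 2.7 and 0.303 to 0.807. There Afp overlapped Igf2bp3 and Igf2bp3 overlapped Igf2bp2, so only Hmga1 stood apart from its neighbour.

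**Figure D3:**
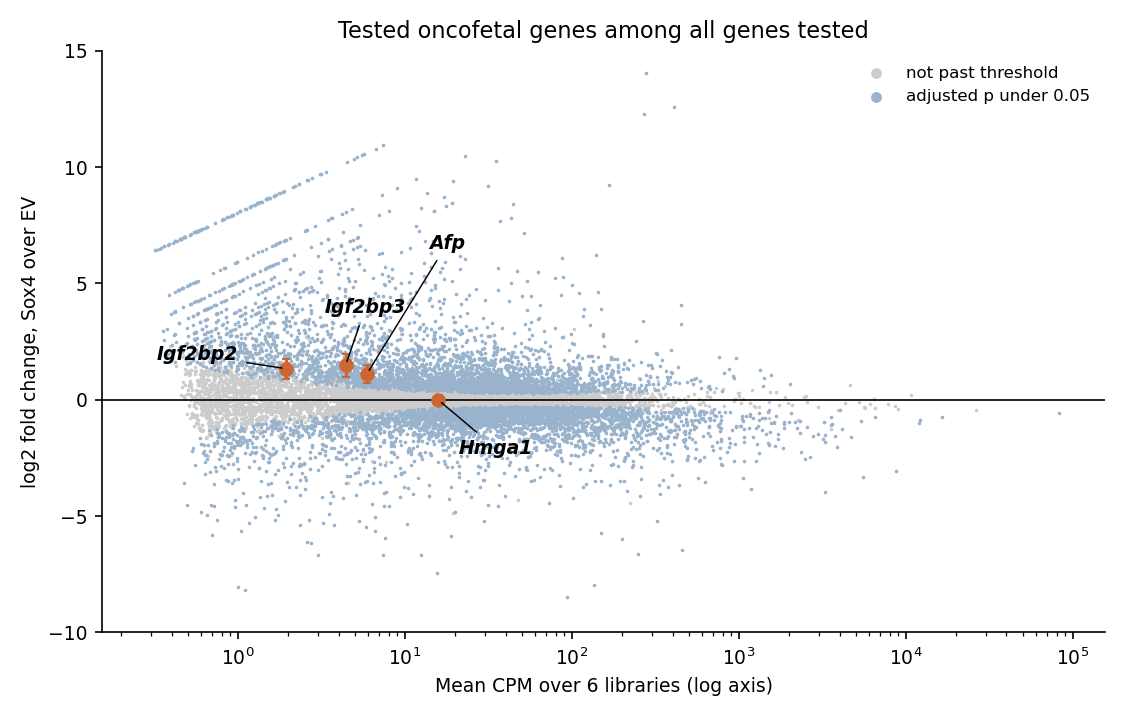
Mean CPM over the 6 libraries (horizontal axis, log scale) against the log2 fold change of Sox4 over EV (vertical axis) for all 12691 tested genes, blue where the adjusted p is under 0.05 and grey otherwise, with the 4 tested oncofetal genes in orange (bars are the SE). Igf2bp2, Igf2bp3 and Afp lie at low levels between 1.11 and 1.47, inside the cloud of called genes, and Hmga1 lies at 0.

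Increases of this size were common among all genes. Of the tested genes, 11.8% had a larger log2 fold change than Igf2bp3, 13.4% than Igf2bp2, 16.1% than Afp and 52.4% than Hmga1. Every Sox4 library lay above every EV library for Igf2bp2 and Igf2bp3, and the same held for 33.1% of all tested genes.

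The Sox4 replicates differed widely in 3 of these genes. The level in Sox4 replicate 3 over the mean of the other Sox4 libraries was 3.05 for Igf2bp3, 2.31 for Afp and 1.83 for Igf2bp2, and a larger ratio was found in 0.631%, 1.62% and 3.52% of tested genes. For Hmga1 the ratio was 0.877. The delivered Sox4 was at 1086, 770 and 598 CPM in Sox4 1 to 3, so the library with the lowest Sox4 level had the highest Afp, Igf2bp2 and Igf2bp3.

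Over the 6 libraries, log2 CPM of Afp correlated with that of Igf2bp2 at 0.89 and with that of Igf2bp3 at 0.91 (Pearson, n = 6), and Igf2bp2 correlated with Igf2bp3 at 0.95. Hmga1 correlated with these at -0.27 to -0.44. The points share libraries and the difference between groups. Among 9024 tested genes that averaged at least 100 counts, the genes most like Afp were Tuba8 (0.992), Uba2 (0.989) and Abhd10 (0.985). For Igf2bp2, over 9025 genes, they were Sbf2 (0.995), Cyp4a31 (0.995) and Ccser2 (0.993), and for Igf2bp3 Agpat5 (0.987), Mosmo (0.987) and Krr1 (0.984). For Hmga1 they were Ddx23 (0.989), Kansl1l (0.975) and Axin1 (0.973). The genes named are the highest of all those compared, over 6 points each. A value of at least 0.95 was reached by 48 genes for Afp, 94 for Igf2bp2, 29 for Igf2bp3 and 6 for Hmga1.

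**Figure D4:**
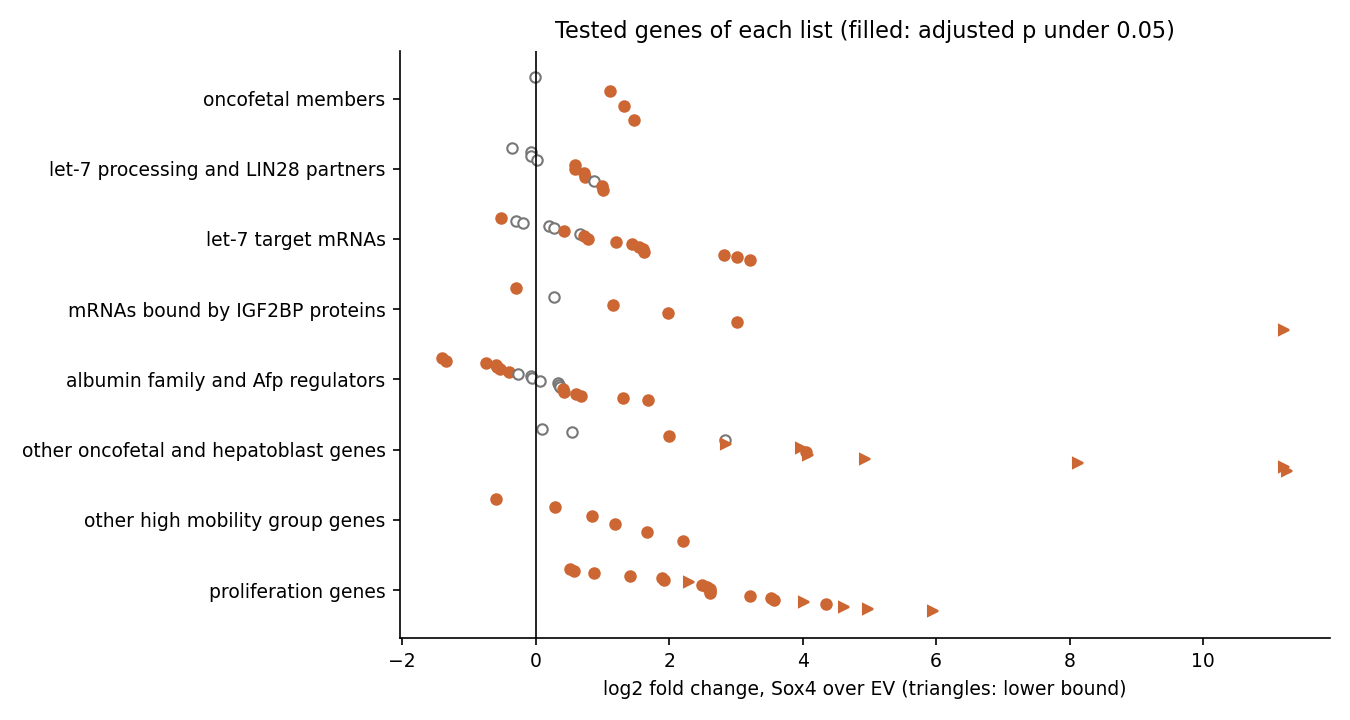
Log2 fold change of Sox4 over EV (horizontal axis) of every tested gene of the oncofetal genes and of 7 gene lists (rows), filled where the adjusted p is under 0.05, with triangles for lower bounds where every EV library had at most 3 counts. The oncofetal genes reach 1.47, while genes of the hepatoblast and proliferation lists reach bounds far to the right.

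Other genes of the fetal liver and of hepatoblasts were compared as a list without the 7 members. Cd24a, Epcam and Prom1 on this list are also biliary reprogramming markers that the paper reports in Sox4-expressing hepatocytes. Of 12 tested, 9 were higher and 0 lower, and the median log2 fold change was 4.02 with genes of at most 3 counts in every EV library set to their lower bound (6.41 as fitted), against 29.0% of all tested genes that were higher and a median of 0.04. All 9 had at most 9 counts in every EV library and passed the filter only through the Sox4 libraries. A call of higher was thus the only one open to them. Dlk1, a surface marker of hepatoblasts, had 0, 0 and 1 counts in EV and 135, 122 and 153 in Sox4, at least 30.7-fold higher (adjusted p = 3.80e-06). Gpc3, the glypican used with Afp as a marker of liver cancer, had 0, 0 and 1 counts in EV and 50, 54 and 107 in Sox4, at least 15.8-fold higher (adjusted p = 6.99e-05). Igdcc4 was at least 7.26-fold higher, Prom1 at least 280-fold and Cd24a at least 2460-fold, all against 3 counts per EV library. Sall4, a transcription factor of hepatoblasts, had 1 count in all. The fold of Afp is thus a measured ratio over a detectable EV level, whereas those of Dlk1 and Gpc3 are bounds.

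All 20 tested proliferation genes were higher, with a median log2 fold change of 2.61 with bounds (2.62 as fitted), against 29.0% of all tested genes that were higher and a median of 0.04, and 16 to 20 were called when a library was left out. Mki67, Ccnb1, Ccnb2, Bub1, Plk1, Top2a, Ccna2 and Aurkb had at most 9 counts in every EV library. They passed the filter only through the Sox4 libraries, so a call of higher was the only one open to them. Mki67, a marker of dividing cells, had 2, 0 and 0 counts in EV and 276, 302 and 252 in Sox4, at least 62.1-fold higher (adjusted p = 1.67e-06). Ccnb1 was at least 24.7-fold and Ccnb2 at least 31.7-fold higher, and Top2a rose by 4.35 on the log2 scale. Unlike Afp and the Igf2bp genes, Top2a was lowest in Sox4 replicate 3, with 178, 242 and 104 counts in Sox4 1 to 3.

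The label of hepatocytes was checked against 8 hepatocyte markers, whose summed level was between 114823 and 137414 CPM in EV and between 79383 and 90115 CPM in Sox4. Markers of other liver cells were much lower. The 8 Kupffer cell markers summed to between 10.6 and 25.2 CPM in EV and between 23.6 and 58.7 CPM in Sox4. Of 7 tested, 2 were higher, a share near the 29.0% of all tested genes, and 0 were lower. Their median log2 fold change was 0.86, against 0.04 over all tested genes. Among the Sox4 libraries the Kupffer cell, endothelial and hepatocyte sums were each highest in Sox4 replicate 3, the library in which Afp, Igf2bp2 and Igf2bp3 were also highest. Of 4 tested cholangiocyte markers 2 were higher (range of the sum 27.5 to 43.6 CPM for EV, 71.4 to 84.6 CPM for Sox4). The rise of this sum was mostly Spp1, from 5.23 ± 1.44 to 38.7 ± 3.21 CPM (SD, n = 3), and Krt19 had at most 9 counts in a library. Epcam, with at most 5 counts in an EV library, passed the filter only through the Sox4 libraries. The paper reports EPCAM protein, but not KRT19, in hepatocyte-derived cells after Sox4 delivery. That EPCAM protein was strong only later than the 4 dpi of these libraries. EPCAM is thus not specific to cholangiocytes after Sox4 delivery, and whether the other markers are was not tested. Both tested stellate cell markers were higher (7.70 to 40.3 CPM for EV, 60.8 to 129.6 CPM for Sox4). The stellate sum was mostly Reln, named after its values were seen, at 126, 117 and 50.8 CPM in the Sox4 libraries, and the other 6 markers summed to 3.35, 9.23 and 10.1 CPM there, highest in Sox4 replicate 3. Of 7 tested endothelial markers 2 were higher, again near that share, and 1, Stab2, lower (14.7 to 22 CPM for EV, 11.9 to 28.1 CPM for Sox4). Their median log2 fold change was 0.65. Erythroid and blood progenitor markers, which would mark fetal-type blood cells, had a sum of 3.92 to 6.07 CPM for EV against 2.25 to 4.54 CPM for Sox4. The EV sum was mostly Klf1, at 3.31, 5.61 and 2.83 CPM in EV and 0.70, 0.66 and 0.71 CPM in Sox4. The means of Hbb-bs, Hbb-bt, Hba-a1, Hba-a2, Kit and Cd34 were higher in Sox4, each with at most 31 counts in a library. Mean Kit, for example, was 0.423 CPM in EV and 1.13 CPM in Sox4. Gata1 went the other way, with 1, 1 and 0 counts in EV and 0 in Sox4. Leukocyte markers had a sum of 0.770 to 2.20 CPM for EV against 1.5 to 4.49 CPM for Sox4, with Ly6g at 0 throughout. The part of these cells in the levels of Afp, Igf2bp2 and Igf2bp3 was not tested. In bulk RNA, more cells that express a gene and more RNA per cell cannot be told apart.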

How the data were processed

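RNA-Seq libraries of mouse hepatocytes (3 EV, 3 Sox4) were analysed from 2 deposited tables. The authors aligned reads to GRCm39 with STAR (2.7.10b per the labels) and made the deposited counts per gene with featureCounts 2.0.1. Annotation release, strand setting and handling of multimapping reads are not given in the sources used here. The authors also deposited a normalized signal, the counts divided by a DESeq2 size factor per library. The ratio of both tables matched size factors computed anew from the counts.

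Groups came from the labels. The tests on counts used R 4.3.3 and edgeR 4.0.16 (filterByExpr with a minimum count of 10 and a minimum total of 15, TMM, robust quasi-likelihood F test, no covariate, two-sided). Benjamini-Hochberg adjustment ran over the 12691 genes tested, and an adjusted p under 0.05 was called. Adjusted p-values without a named tool are from this edgeR test. CPM values use TMM-scaled library sizes, and the SE is that of the fit. Fold changes against a group with at most 3 counts in every library are lower bounds, the mean CPM over the mean CPM of 3 counts in the other group. PCR copies are not independent molecules, so these limits cover counting error only. The scripts were tested on simulated counts with the same dispersion for every gene and few changed genes. That run checks the code and does not cover the spread or the many changes of these libraries.

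Alternatives were DESeq2 1.42.0, limma 3.58.1 (voom, and trend on the log2 deposited values with a pseudocount of 1 or 0.5), other scalings and filters, the replicate number as a block, and leaving out each library. The 7 genes and all lists were chosen with earlier results of these data known. Named genes were the 7 members, Sox4, up to 6 per list by size of change and others by role, and the 3 genes most correlated with each member. Malsu1, Hmga1b, AI413582 and Gm49774 were added for shared or overlapping sequence. Coordinates, lengths and 3′ UTRs are from GENCODE M21 and promoters from RefSeq, both on GRCm38, not the build of the counts. Of the 7 genes, 6 matched a promoter entry. A few list genes enter the totals of their list and are otherwise not reported here.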

Additional observations from a re-analysis of the deposited data

How the results depend on the processing

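Of the oncofetal genes, 3 passed the threshold with TMM, and 0 passed with limma-voom (Afp 1.01, Igf2bp2 1.20, Igf2bp3 1.25). Leaving out a library in turn gave 0 to 3 calls. The count was 0 without EV replicate 1 or Sox4 replicate 3 and 1 without EV replicate 3. The log2 fold changes then ranged from 0.60 to 1.37 for Afp, 0.98 to 1.63 for Igf2bp2 and 0.73 to 1.79 for Igf2bp3, with no change of direction, and from -0.19 to 0.10 for Hmga1. Hmga1 was also above 0 with library size alone (0.46), no filter (0.035) and a mean count of at least 50 (0.020). For these the cause was not tested, except that leaving out a library leaves fewer samples and that library size alone shifts the median of all genes to 0.51. A mean count of at least 50 left Igf2bp2 untested.

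Library size alone gave 10 calls among let-7 processing genes, and put Tut7 (0.11), Dicer1 (0.40) and Afm (0.20) above 0. A mean count of at least 50 left 5 calls among the hepatoblast genes, since fewer were tested. RNAs bound by IGF2BP proteins had 3 to 4 calls when a library was left out. In those fits Dis3l2 ranged from -0.098 to 0.12 (-0.019 without EV replicate 2) and Zhx2 from -0.16 to 0.19 (-0.026 without EV replicate 3). The number of genes called in all lay between 5937 and 8094.

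The labels number the replicates in both groups. Across genes, the deviations from the group means correlated at 0.27, -0.09 and 0.13 for numbers 1 to 3, which does not pair the libraries beyond their number. With the replicate block 7362 genes were called, and Afp (1.05), Igf2bp2 (1.26) and Igf2bp3 (1.29) passed, as did Zfhx3, while Arid3a did not. Depth limits Igf2bp1, Lin28b and Hmga2, which could not be tested.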
